A study of Mus musculus with 8 samples.

Results

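Gm26809, Gm20186 and Gm49314 are 3 noncoding rows of a gene count table from ID8-OR cells, olaparib-resistant derivatives of ID8, a line of mouse ovarian cancer. They are 3 of the 54146 rows of the table. Gm26809 and Gm20186 are long intergenic noncoding RNA genes on opposite strands of chromosome 6, and Gm49314, on chromosome 15, is of the type TEC, a tentative transcript awaiting experimental evidence. They were chosen by measured values, since the rows of Gm26809 and Gm49314 were already known to be called higher with EZM8266 than with DMSO, and Gm20186 is the annotated partner of Gm26809. Those differences are therefore given as a description without a test. Of the 3 rows, 2 passed the filter on low counts and Gm20186 did not.

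All cells were cultured for 72 hours with the combination of olaparib and EZM8266, with EZM8266, with olaparib, or with DMSO, the solvent. The 4 groups have 2 libraries each, and all carry the resistance to olaparib, with no line that is sensitive to it among them. Olaparib blocks PARP enzymes, which mark broken DNA by adding ADP-ribose to proteins. EZM8266, per the series' own description, blocks EHMT1 and EHMT2. Concentrations are not given in the sources used here, and whether the replicates are separate cultures is not stated, so the spread behind each p-value may be only technical.

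EHMT1 and EHMT2 are histone methyltransferases that place methylation on lysine 9 of histone H3, a mark of silent chromatin found over many repeats and tissue-specific genes. Noncoding genes often lie in such chromatin, or start next to a coding gene on the other strand and share its promoter region. A gene on the strand opposite to another can be told from its partner only where the strand of each fragment is known and counted in the right direction.

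The library kit marks the strand, and the counting was set to the strand opposite to the transcripts. The counts therefore fell mainly on rows that lie opposite to the transcribed gene. In a control pair, the row of the abundant noncoding RNA Rmrp held 1.44% of the fragments of the Rmrp and Ccdc107 rows over all libraries (Wilson 95% interval 1.42 to 1.46%), although Rmrp is the RNA made there. For this reason the Gm26809 row is described as fragments on the strand of Gm20186, and the Gm20186 row as fragments on the strand of Gm26809. The Gm49314 row, on the minus strand, is described as fragments on the plus strand, where no gene is annotated. No row reads the RNA of Gm49314 itself. Whether the counts of its row are a small wrong-strand share of that RNA, as in the control pair, was not measured. Where within a row the fragments lie was not measured.

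The libraries summed to 973382 to 1680974 counts, and 15882 to 19399 rows had a count. In each library only 4.54 to 5.40% of all fragments were assigned to a row. A floor of 3 counts stood for 1.85 to 3.02 CPM. CPM here is counts relative to the TMM-scaled library size, in parts per 1e6. DMSO replicate 1 and olaparib replicate 2 stood apart by their high counts in satellite repeat rows, and fold changes are given below with and without them. The labels number the libraries with EZM8266 33 to 36 and the others 41 to 44, so this numbering and EZM8266 cannot be told apart. Combination replicate 2 has EZM8267 in its treatment label and was grouped by its title. In bulk RNA, fewer cells with a transcript and less of it per cell cannot be told apart. The rows of marker genes count the strand opposite to the gene, so low counts there do not show that a cell type is absent. Of 9 markers of ovarian surface epithelium, the rows of Krt8, Krt18, Krt19 and Wt1 passed the filter, and Krt7, Cdh1 and Epcam held at most 1 count in any library. The strand of Krt8 itself is read by the Gm36026 row (101 shared bases), with 196 to 362 counts, and that of Krt7 by Gm671 (77 shared bases), with 0 to 2. Of the other cell types looked for, Col1a1 alone of 5 fibroblast markers passed the filter. None of 4 endothelial or 5 leukocyte markers did, and Cd3e, Adgre1 and Itgam were at 0 in every library. The rows on the strand of Pdgfra and Cd3e held at most 1 count, and the other markers of these types have no such row. Over the libraries of a group, the 5 fibroblast rows summed to 104 to 128 counts with the combination, 49 to 206 with EZM8266, 139 to 178 with olaparib and 117 to 243 with DMSO, and their part in the results was not tested.

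Gm26809 (ENSMUSG00000097815.1) lies at chr6:18844220-18847360 on the plus strand of mm10, with 2981 exon bases in 3 exons. Gm20186 (ENSMUSG00000106874.1) lies at chr6:18845910-18848207 on the minus strand, with 1050 exon bases in 2 merged exons. The genes share 855 exon bases, which are 28.7% of the exon bases of Gm26809 and 81.4% of those of Gm20186. A stretch of the last exon of Gm26809 is shown first because it holds the same short unit several times. It is printed on the strand of Gm20186, whose fragments the Gm26809 row counts, and capitals mark 20-base words found at least 4 times in the transcript. The stretch after it is the part of the overlap that other annotated genes also carry, with capitals for bases in 25-base words found in another gene. Both were taken from the GENCODE M21 transcripts of the same assembly.
Gm26809 end, minus strand, chr6:18847121-18847360: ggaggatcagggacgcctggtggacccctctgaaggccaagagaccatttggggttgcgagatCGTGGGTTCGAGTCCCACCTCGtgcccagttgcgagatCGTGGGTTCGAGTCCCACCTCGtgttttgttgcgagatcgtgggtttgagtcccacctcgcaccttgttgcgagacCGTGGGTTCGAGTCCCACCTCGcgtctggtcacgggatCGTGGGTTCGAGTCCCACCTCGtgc
Overlap, minus strand, chr6:18846210-18846509: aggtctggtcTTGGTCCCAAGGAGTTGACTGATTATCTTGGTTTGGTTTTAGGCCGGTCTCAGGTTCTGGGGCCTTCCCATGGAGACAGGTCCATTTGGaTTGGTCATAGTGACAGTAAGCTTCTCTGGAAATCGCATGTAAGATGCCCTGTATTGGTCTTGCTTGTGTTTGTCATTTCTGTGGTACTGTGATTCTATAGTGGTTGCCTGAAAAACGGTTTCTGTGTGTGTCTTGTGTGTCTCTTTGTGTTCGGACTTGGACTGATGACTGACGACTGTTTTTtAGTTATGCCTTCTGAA

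In the first stretch 88 of 240 bases are in capitals, in 4 runs with 1 shared core. Of 12350 noncoding genes searched, 1.7% hold a 20-base word at least 4 times, simple repeats left out. It lies in the last exon of Gm26809 and between the merged exons of Gm20186, so it belongs to the Gm26809 row only. In the second stretch 288 of 300 bases are in capitals, and the words are those of AC160336.1, D10Wsu102e and Gm12840.

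Over whole genes, 37.8% of the 25-base words of Gm26809 and 42.1% of those of Gm20186 were found in other annotated genes, members left out. Such words covered 62.8% of the bases of the Gm26809 transcript and 66.6 to 76.4% of those of the Gm20186 transcripts. Gm26809 shared 653 words with AC160336.1 and 387 with Gm12840, both on the strand of Gm20186, and 114 with Gm29408 on its own strand. The rows of these 3 genes held 0 to 3 counts in every library. They count the strand opposite to each gene, so they do not show whether its RNA was present. The names of the alignment files carry the word uniq, which may stand for uniquely aligned reads, but fragments of near-identical copies outside the annotation could still fall in the Gm26809 row, and its values are uncertain to that extent. Annotation of repeats was not used here.

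The Gm26809 row was among the most counted of the table, with a mean CPM that ranked 72 among 6379 tested rows. CPM is relative to the few fragments assigned to rows, so neither this rank nor the levels below are shares of all RNA. It held 1731 and 1860 counts with the combination, 2099 and 1974 with EZM8266, 1326 and 1435 with olaparib, and 1113 and 1612 with DMSO. As levels these were 1740 and 1810 CPM with the combination, 1590 and 1960 CPM with EZM8266, 976 and 1170 CPM with olaparib, and 1090 and 995 CPM with DMSO. All 4 libraries with EZM8266 lay above all 4 without it, and within each of these sets the groups overlapped. That separation is the difference the row was chosen for, and how many tested rows separate alike is not given here.

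The mean level of the row was 1780 ± 49.0 CPM with the combination, 1780 ± 265 with EZM8266, 1070 ± 135 with olaparib and 1040 ± 66.9 with DMSO (SD, n = 2 each). In order of level, the combination and EZM8266 did not differ beyond their spread, nor did olaparib and DMSO. Only the step between EZM8266 and olaparib, 705 CPM, was larger than the SDs of both groups together. Per kilobase of exon the mean level was 597 CPM with the combination, 596 with EZM8266, 359 with olaparib and 350 with DMSO.

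The fitted log2 fold change of the Gm26809 row was 0.77 ± 0.13 (SE) for the combination against DMSO, 0.77 ± 0.13 for EZM8266 against DMSO. It was 0.73 ± 0.13 with the combination against olaparib. Without DMSO replicate 1 and olaparib replicate 2 these were 0.85, 0.84 and 0.86. These comparisons carry the difference the row was chosen for, so calls of the members in them are a description and no support for it. For combination against DMSO, 14 of 6379 tested rows (0.219%) were called at an adjusted p under 0.05, and for EZM8266 against DMSO 13 (0.204%), both counts including the Gm26809 and Gm49314 rows. Over 16 alternative settings, Gm26809 was called in 11 for the combination and in 7 for EZM8266, and Gm49314 in 12 and in 9. Leaving out either DMSO library ended the calls of both rows. In combination against olaparib 6 rows (0.0941%) were called, and the Gm26809 and Gm49314 rows were not among them, although each was called under some alternative settings.

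Olaparib and the addition of olaparib to EZM8266 gave no call for the Gm26809 row. Olaparib against DMSO gave a log2 fold change of 0.04 ± 0.13 (adjusted p = 0.999, edgeR quasi-likelihood test), with an approximate 95% interval of -0.22 to 0.30. The combination against EZM8266 gave 0.00 ± 0.13 (adjusted p = 1.000), with an interval of -0.26 to 0.26. The interaction, the difference between those values, contains the difference the row was chosen for, and was -0.04 ± 0.19. None of the 6379 rows (0%) was called in these comparisons by edgeR. An unadjusted p under 0.05 was found for 117 rows (1.83%) in olaparib against DMSO, 98 (1.54%) in the combination against EZM8266 and 103 (1.61%) in the interaction. These shares are below what that threshold gives where nothing differs. DESeq2 called 0, 1 and 1 in the same order. Olaparib against DMSO shares its DMSO libraries, and the combination against EZM8266 all its libraries, with the comparisons used in the choice.

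The Gm20186 row, which counts the strand of Gm26809, was near the floor in every library. It held 2 and 2 counts with the combination, 5 and 4 with EZM8266, 4 and 2 with olaparib, and 2 and 5 with DMSO. The mean level was 1.98 ± 0.0461 CPM with the combination, 3.88 ± 0.138 with EZM8266, 2.28 ± 0.931 with olaparib and 2.52 ± 0.798 with DMSO (SD, n = 2 each). At 2 to 5 counts the exact Poisson interval of a library spans 0.242 to 7.22 counts at the low end and 1.62 to 11.7 at the high end, so no order of these groups is detectable at this depth. Summed over a group, the ratio to DMSO per library size was 0.747 with the combination (exact 95% interval 0.16 to 2.94), 1.46 with EZM8266 (0.483 to 4.61) and 0.874 with olaparib (0.243 to 3.04). These exact and Wilson intervals and the floors cover counting error only. The approximate intervals of fold changes rest on the SE of the fit, which holds the spread between libraries.

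Of the fragments of the overlapping pair, nearly all were on the strand of Gm20186. The Gm20186 row held 0.115% and 0.107% of the pair with the combination, 0.238% and 0.202% with EZM8266, 0.301% and 0.139% with olaparib, and 0.179% and 0.309% with DMSO. Over all libraries it held 26 fragments beside 13150 in the Gm26809 row, 0.197% (Wilson 95% interval 0.135 to 0.289%). This lies below the 1.44% of the Rmrp row in its own pair, where the rows differ in how much of each gene the other covers. Over the exons of Gm20186, RNA from the strand of Gm26809 was therefore not detectable above the share in the control pair. These exons cover 855 of the 2981 exon bases of Gm26809. RNA from the rest of Gm26809 falls outside the Gm20186 row, so its absence cannot be read from this share.

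**Figure D1:**
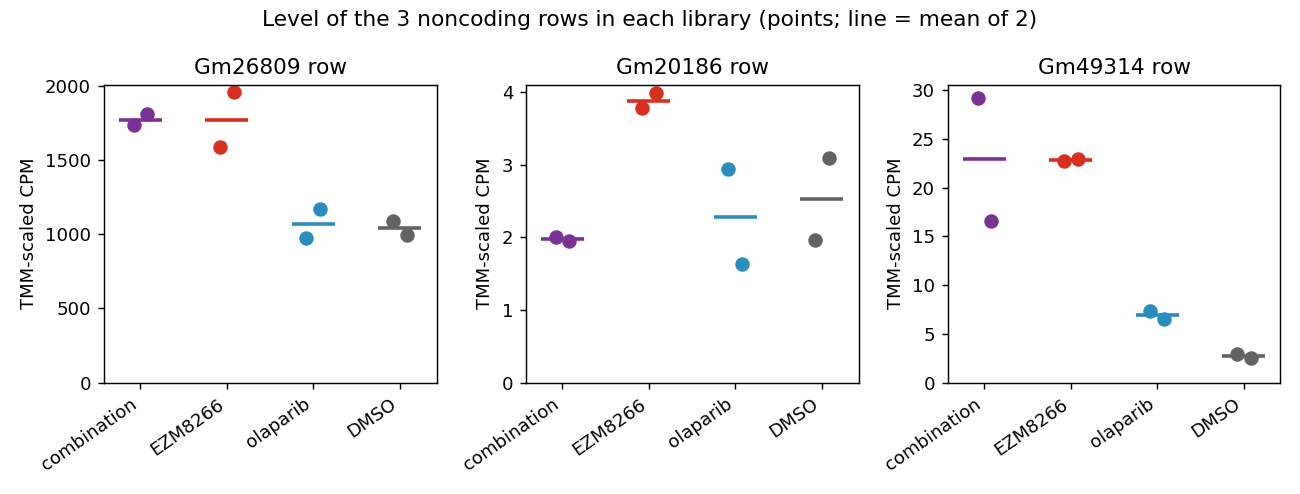
Level of each row (vertical axis, TMM-scaled CPM, a scale of its own in each panel) in the combination, EZM8266, olaparib and DMSO libraries, with a point for each library and a line for the mean of 2. The Gm26809 and Gm49314 rows are higher in all 4 libraries with EZM8266, the difference they were chosen for. The Gm20186 row stays between 1.63 and 3.98 CPM.

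Gm49314 (ENSMUSG00000115437.1) is a single exon of 1042 bases at chr15:38275400-38276441 on the minus strand, with no annotated gene opposite to it. Only 1.57% of its 25-base words were found in other annotated genes. The stretch below, its 3′ end printed on the annotated minus strand from the GENCODE M21 transcripts, is shown for that contrast with Gm26809. Capitals mark the bases in such words, 40 of 200. The window was placed to hold them, and over the whole transcript such bases are 3.84%.
Gm49314, minus strand, chr15:38275400-38275599: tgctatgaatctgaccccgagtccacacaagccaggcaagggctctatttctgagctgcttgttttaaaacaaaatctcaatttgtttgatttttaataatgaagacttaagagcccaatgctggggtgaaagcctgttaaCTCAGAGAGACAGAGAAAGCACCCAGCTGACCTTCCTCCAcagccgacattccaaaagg

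The Gm49314 row had low counts, and the difference between its groups was large beside them. It held 29 and 17 counts with the combination, 30 and 23 with EZM8266, 10 and 8 with olaparib, and 3 and 4 with DMSO. As levels these were 29.2 and 16.6 CPM with the combination, 22.7 and 22.9 with EZM8266, 7.36 and 6.51 with olaparib, and 2.94 and 2.47 with DMSO. All libraries with EZM8266 were above all without it, and both olaparib libraries were above both DMSO libraries. The separation by EZM8266 is what the row was chosen for, and how many tested rows separate alike is not given here. The row passed the filter through its high libraries, so that passing went with a difference between groups.

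The mean level of the Gm49314 row was 22.9 ± 8.94 CPM with the combination, 22.8 ± 0.127 with EZM8266, 6.93 ± 0.602 with olaparib and 2.70 ± 0.331 with DMSO (SD, n = 2 each). In this order the combination and EZM8266 did not differ beyond their spread, and each later step was larger than the SDs of its groups together. SDs of 2 libraries can fall below counting error. The exact Poisson intervals of the olaparib libraries, 4.8 to 18.4 and 3.45 to 15.8 counts, overlapped those of the DMSO libraries, 0.619 to 8.77 and 1.09 to 10.2. The step between olaparib and DMSO is therefore uncertain from single libraries, and the ratio of the summed counts is given below with its limits. The DMSO level is near the floor. Per kilobase of exon the mean was 22.0 CPM with the combination, 21.9 with EZM8266, 6.65 with olaparib and 2.60 with DMSO, a small part of the level of the Gm26809 row on the same scale.

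The fitted log2 fold change of the Gm49314 row was 3.05 ± 0.52 (SE) for the combination against DMSO, 3.05 ± 0.52 for EZM8266 against DMSO. It was 1.70 ± 0.45 with the combination against olaparib. Without DMSO replicate 1 and olaparib replicate 2 these were 3.17, 3.16 and 1.61. From summed counts, 46 with the combination and 53 with EZM8266 stood against 7 with DMSO. Per library size both were 8.59 times the DMSO level. Counted from the highest fold change, the row ranked 3 among all tested rows for the combination against DMSO and 4 for EZM8266 against DMSO.

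Olaparib against DMSO gave a log2 fold change of 1.35 ± 0.60 for the Gm49314 row. The row was not called (adjusted p = 0.999, edgeR quasi-likelihood test), with a level higher in 2 of 2 olaparib libraries than in either DMSO library. The sums were 18 counts with olaparib and 7 with DMSO, a ratio per library size of 2.62 (exact 95% interval 1.05 to 7.43, counting error only). The low DMSO values entered the choice of the row, and in a fit of olaparib and DMSO alone it did not pass the filter, so this difference is a description. The combination against EZM8266, which holds no DMSO library, gave 0.00 ± 0.39 (adjusted p = 1.000), with an approximate 95% interval of -0.76 to 0.77. The interaction contains the difference the row was chosen for, and its value was -1.35 ± 0.72.

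**Figure D2:**
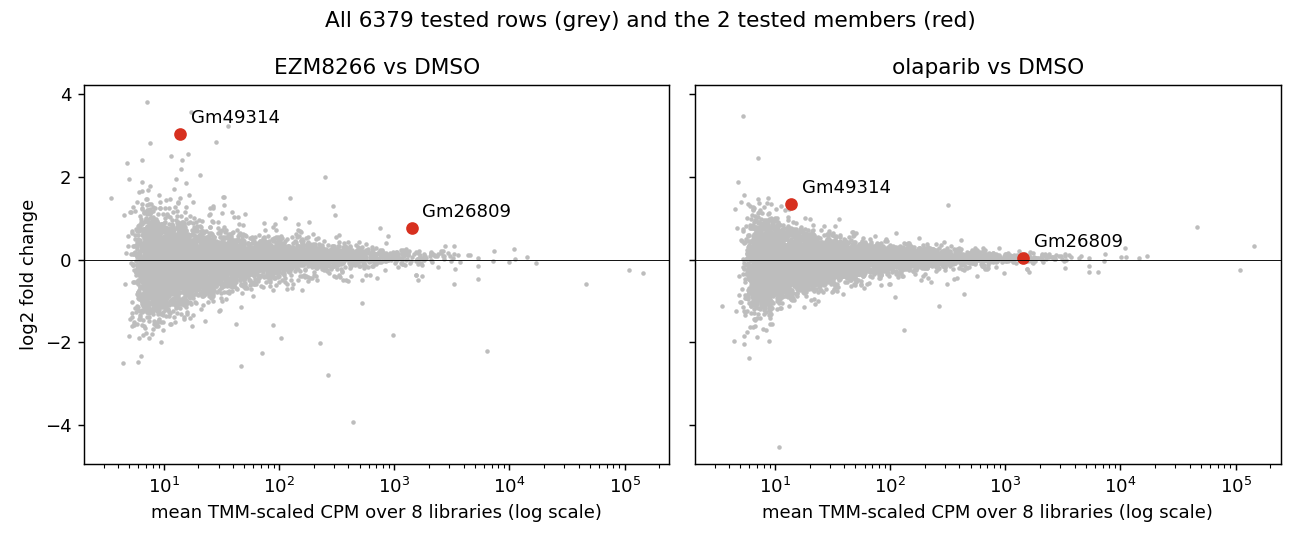
Log2 fold change (vertical axis) against mean TMM-scaled CPM over 8 libraries (horizontal axis, log scale) for the 6379 tested rows in grey and the Gm26809 and Gm49314 rows in red, for EZM8266 against DMSO (left) and olaparib against DMSO (right). Gm49314 stands at 3.05 and 1.35, and Gm26809 at 0.77 and 0.04.

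The nearest coding gene of the chromosome 6 pair is Lsm8, a subunit of the ring of Lsm proteins that binds U6 RNA in the nucleus. Gm20186 and Lsm8 start head to head, with 372 bases between their starts. The bases just before the start of Lsm8 are shown because they lie between both starts. They come from the RefSeq promoter table (GRCm38), on the plus strand, with matches of CCGCCC or its reverse complement GGGCGG, the core of GC boxes, in capitals.
Upstream of Lsm8, plus strand, chr6:18848385-18848578: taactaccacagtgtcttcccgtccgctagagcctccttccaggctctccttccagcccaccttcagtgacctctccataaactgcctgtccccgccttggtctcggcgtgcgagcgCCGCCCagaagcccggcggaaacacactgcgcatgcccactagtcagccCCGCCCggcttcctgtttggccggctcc

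This stretch of 194 bases has 2 matches, and 23.6% of 32851 promoter entries hold at least 1 in a window of the same length. Its GC content is 64.4%, against a median of 51.5% over the same window of all entries. The Lsm8 row held 1 and 2 counts with the combination, 1 and 1 with EZM8266, 3 and 1 with olaparib, and 0 and 0 with DMSO. No row of the table lies opposite to the exons of Lsm8, so its transcripts were not measured. Whether Lsm8 changed along with the Gm26809 row is not answered by these counts.

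The other coding neighbours on chromosome 6 were at or near 0. Toward lower coordinates they were Cttnbp2, a cortactin-binding protein, at 329.377 kb, Cftr, the chloride channel of epithelia, at 521.452 kb, and Asz1, a germ cell protein of the piRNA pathway, at 735.159 kb. Toward higher coordinates were Ankrd7, an ankyrin repeat protein, at 18.111 kb with 0 counts in every library, and Kcnd2, a voltage-gated potassium channel, at 2367.296 kb. None of the 6 coding rows on chromosome 6 exceeded 3 counts in a library. The row on the strand of Cftr (Gm15592) held 2 to 13 counts and that on the strand of Cttnbp2 (Gm15594) 0 to 1, and neither passed the filter. The 3 pseudogene rows within 100 kb, Gm43228, Gm5874 and Gm43498, held 0 counts.

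**Figure D3:**
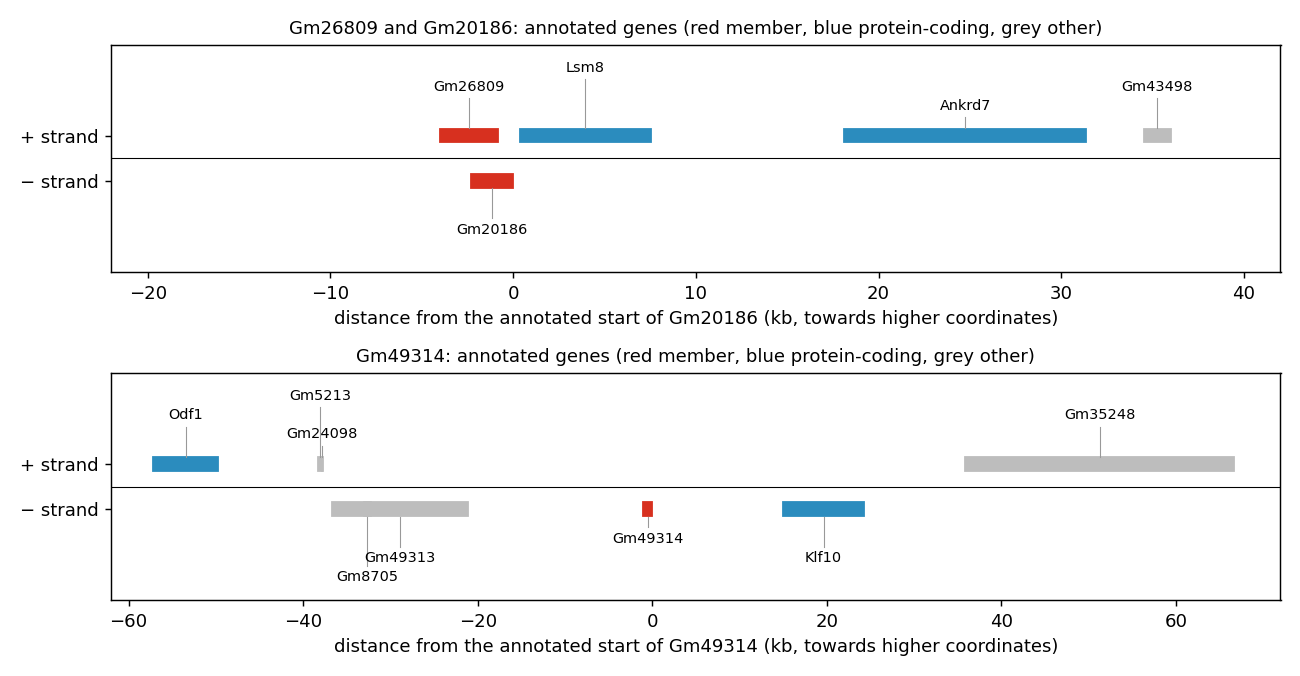
Annotated genes around Gm26809 and Gm20186 (upper map) and Gm49314 (lower map), with members in red, protein-coding genes in blue and other genes in grey, on the plus strand above and the minus strand below the line. The horizontal axis is the distance in kb from the annotated start of Gm20186 or Gm49314, and Lsm8 begins 372 bases from the start of Gm20186 in the other direction.

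The nearest coding gene of Gm49314 is Klf10, a zinc finger factor induced by TGF-beta, 15.022 kb toward higher coordinates on the same strand. Its row held 5 and 10 counts with the combination, 7 and 3 with EZM8266, 10 and 5 with olaparib, and 9 and 11 with DMSO, and did not pass the filter. No row lies opposite to its exons. On the other side the nearest is Odf1, a protein of the sperm tail, at 48.665 kb, with 0 counts in every library. Further out toward higher coordinates are Azin1, an inhibitor of antizyme in polyamine metabolism, at 210.986 kb, and Atp6v1c1, a subunit of the vacuolar proton pump, at 385.492 kb with 1 to 7 counts. Toward lower coordinates is Rrm2b, a p53-induced subunit of ribonucleotide reductase, at 314.082 kb with 1 to 3 counts. Of the 6 other rows within 100 kb, Gm5213, Gm24098, Gm8705 and Gm35248 held 0 counts, and Gm35167 and Gm49313 at most 1.

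Of the rows that read the strand of a coding neighbour, Gm49077, opposite to Azin1, had the most counts. It shares 358 of its 1266 exon bases with Azin1, and how much of its level is RNA of Azin1 was not measured. The row held a mean level of 909 ± 16.2 CPM with the combination, 895 ± 22.9 with EZM8266, 901 ± 14.9 with olaparib and 857 ± 18.5 with DMSO (SD, n = 2 each). Its log2 fold change was 0.09 ± 0.11 for the combination against DMSO (adjusted p = 0.990), with an approximate 95% interval of -0.12 to 0.30. EZM8266 against DMSO gave 0.06 ± 0.11 (adjusted p = 0.955, edgeR), with an interval of -0.14 to 0.27.

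The strand of Rrm2b was read by the Gm49085 row, which shares 734 of its 5748 exon bases with that gene. How much of the level of this row is RNA of Rrm2b was not measured. That row averaged 49.5 ± 3.05 CPM with the combination, 59.5 ± 15.7 with EZM8266, 69.2 ± 13.6 with olaparib and 54.3 ± 10.4 with DMSO. Its lowest p among the comparisons was for the combination against olaparib, with a log2 fold change of -0.48 ± 0.25 (unadjusted p = 0.0765, adjusted p = 1.000, edgeR), and the groups did not overlap. The Azin1 row itself, which counts the strand opposite to the gene, held 4 to 14 counts and gave 0.26 ± 0.63 for the combination and 0.03 ± 0.63 for EZM8266 against DMSO (adjusted p = 0.997 and 1.000, edgeR).

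Of the coding neighbours described and the rows opposite to them, the Azin1, Gm49077 and Gm49085 rows passed the filter, all on chromosome 15. None of these 3 was called in any of the 6 comparisons, with 0.955 as the smallest adjusted p by edgeR, beside backgrounds of 0.219% and 0.204% called for the combination and EZM8266 against DMSO. No coding neighbour of the chromosome 6 pair could be tested.

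**Figure D4:**
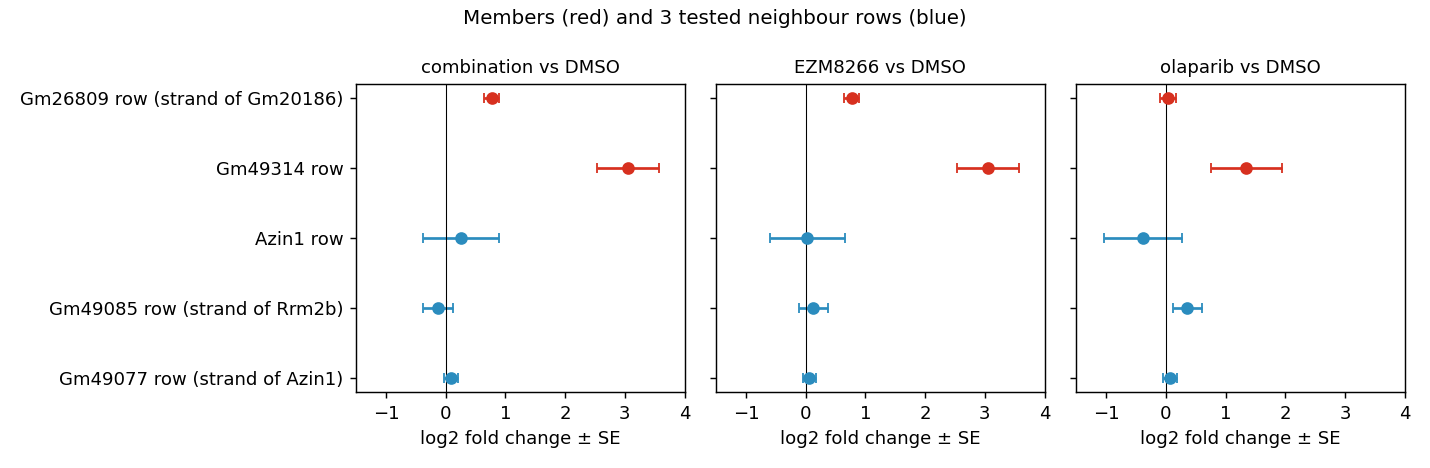
Log2 fold change with its SE (horizontal axis) of the members and of 3 tested neighbour rows for the combination, EZM8266 and olaparib against DMSO, with members in red and neighbours in blue. The members stand at 0.77 and 3.05 in the left and middle panels, and the neighbours have wide or near-zero values with no call.

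The rows most like each member were found by the root mean square difference of log2 CPM, centred on the mean over the 8 libraries, among 6377 other tested rows. For Gm26809 the nearest was Gm49544, on the strand of the linker histone gene H1f0, at 0.084 beside a median of 0.497 over all rows. Its level was 940 ± 101 CPM with the combination, 925 ± 233 with EZM8266, 588 ± 48.7 with olaparib and 541 ± 62.6 with DMSO. Next, at 0.14, came the row named for Jak3, a cytokine receptor kinase. It counts the strand opposite to Jak3, with 13 to 27 counts, so it is not a level of that gene. Gm15657, opposite to Heg1 and Muc13, followed at 0.151. Gm4673, opposite to the lipoprotein receptor gene Lsr, stood at 0.155, and 4930444A19Rik, opposite to Ankrd44, at 0.158. In each of these 5 rows the libraries with EZM8266 lay above those without it, which the choice by likeness favours.

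For Gm49314 the nearest row was 2210010C04Rik, at 0.268 beside a median of 1.12. It held 11 and 12 counts with the combination, 16 and 12 with EZM8266, 7 and 5 with olaparib, and 1 and 1 with DMSO. Olaparib lay between, an order that the choice by likeness over all libraries favours. BC029722, opposite to the metalloproteinase gene Mmp24, followed at 0.274, then Gm36099, opposite to the serpin gene Serpinb9b, at 0.321, Gm49398 at 0.325 and Cts8-ps at 0.396. Each of these rows counts the strand opposite to the gene it is named for. The Gm36099 row had a mean level of 360 ± 7.67 CPM with the combination, 401 ± 55.9 with EZM8266, 132 ± 15.8 with olaparib and 101 ± 13.2 with DMSO. The libraries are shared by all rows, so the likeness is a description and carries no test.

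In all, 1495 tested rows carry a Gm-number symbol, the Gm26809 and Gm49314 rows included, of which 9 (0.602%) were called for the combination and 8 (0.535%) for EZM8266 against DMSO, with median log2 fold changes of 0.06 and 0.07. Over all tested rows the median was -0.02 in both. Of 110 tested rows where both overlapping genes are noncoding, as in the Gm26809 pair, 2 (1.82%) were called in each of these comparisons, the Gm26809 row among them.

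Genes of H3K9 methylation, the pathway of the EZM8266 targets, were read on their own strand only where another row lies opposite to them. Of the 22 genes listed, 7 had such rows, 10 rows in all, of which 9 passed the filter. None of the 9 was called in the 6 comparisons, with 0.854 as the smallest adjusted p (edgeR), and their median log2 fold change was -0.10 for the combination and 0.03 for EZM8266 against DMSO. These rows were added after the values of the list were seen, and Cers2, Dclre1c and Tug1 among them are genes in their own right. The most counted was Gm14820, on the strand of Suv39h1, a methyltransferase of the same lysine as EHMT1 and EHMT2, with 767 shared bases. Its level was 360 ± 2.76 CPM with the combination, 351 ± 5.45 with EZM8266, 346 ± 5.35 with olaparib and 339 ± 8.63 with DMSO (SD, n = 2 each). Its log2 fold change was 0.08 ± 0.12 for the combination and 0.05 ± 0.12 for EZM8266 against DMSO (adjusted p = 0.993 and 0.970, edgeR). Gm26858, on the strand of Wiz, a zinc finger partner of EHMT1 and EHMT2, held 33 to 63 counts.

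The rows that carry the names of the listed genes count the opposite strand, so their values are not levels of those genes. Of 21 such rows 13 passed the filter and none was called in the 6 comparisons. The most counted were the rows of Wiz, with 171 to 304 counts, Dnmt1, the maintenance DNA methyltransferase, with 29 to 93, Setdb1, a methyltransferase of the same lysine, with 23 to 47, and Cbx5, a reader of its methylation, with 18 to 70.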

How the data were processed

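RNA of 8 ID8-OR libraries was sequenced as read pairs. The deposited table holds raw whole-number counts for each gene. HISAT2 2.1.0, the build mm10, Subread 1.6.2, MultiQC 1.7 and FastQC 0.11.8 are named in the submitters' processing notes. Per the file headers, featureCounts 1.6.2 counted read pairs over exons of GENCODE M18 with strand setting 1, and a fragment counted for every gene it overlapped. Groups and replicate numbers came from the titles. From the counts, edgeR 4.0.16 in R 4.3.3 was run with TMM scaling, filterByExpr (minimum count 10, minimum total 15), 1 quasi-likelihood fit of 8 libraries with 4 group means, and Benjamini-Hochberg adjustment over 6379 rows. It was tested on simulated data. Approximate intervals are the log2 fold change with a normal range of its SE.

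Symbols, positions and transcripts came from GENCODE M21 and promoters from RefSeq, on the same assembly. The named genes are the members, genes within 100 kb, the 3 nearest coding genes on each side with rows sharing at least 50 exon bases opposite to them, the 5 tested rows most alike (prior count 2), and up to 4 tested rows of the H3K9 list with the most counts. Of these, 1 coding neighbour is not reported here. The genes that share words with the members were named after their values were seen. Members and lists were chosen with earlier results of these data known. The alternatives were DESeq2 1.42.0, RLE scaling, no filter, at least 1 CPM in 4 libraries, a replicate block, only the groups compared, and leaving out libraries. Replicates of every group differed by more than sampling noise.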

Additional observations from a re-analysis of the deposited data

How the results depend on the processing

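The fold changes of both tested members against DMSO with EZM8266, alone or in the combination, kept their direction under every alternative run. Leaving out 1 library gave 0.61 to 0.90 for Gm26809 and 2.91 to 3.16 for Gm49314 in EZM8266 against DMSO, 0.71 to 0.85 and 2.60 to 3.42 in the combination against DMSO. They were 0.62 to 0.85 and 1.24 to 2.06 with the combination against olaparib. For Gm49314, EZM8266 against DMSO was 3.16 without DMSO replicate 1 and 2.91 without DMSO replicate 2, beside 3.05 with all libraries. Over all alternatives in which the Gm49314 row passed the filter, olaparib against DMSO gave 1.21 to 1.55. The calls were less stable than the fold changes. For the combination against DMSO, Gm26809 was not called without either combination library in turn or either DMSO library in turn, and Gm49314 not without combination replicate 1 or either DMSO library in turn. For EZM8266 against DMSO, both calls ended in the fit of only the groups compared and without EZM8266 replicate 2, olaparib replicate 1 or either DMSO library in turn. That of Gm26809 also ended with the replicate block and without either combination library in turn, and that of Gm49314 without EZM8266 replicate 1. All 4 calls ended when DMSO replicate 1 and olaparib replicate 2 were both left out.

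The counts of rows called moved more. In the order combination against DMSO, EZM8266 against DMSO, combination against olaparib, combination against EZM8266, olaparib against DMSO and interaction, they were 45, 42, 42, 12, 8 and 7 with no filter on low counts. Leaving out 1 library gave 6 to 19, 5 to 24, 4 to 13, 0 to 3, 0 to 1 and 0 to 1. The count for EZM8266 against DMSO was 24 and 7 without EZM8266 replicates 1 and 2, 8 without olaparib replicate 1, and 6 and 5 without DMSO replicates 1 and 2. For the combination against DMSO it was 6 and 9 without combination replicates 1 and 2 and 6 without each DMSO library in turn. For combination against olaparib it was 11 and 13 without EZM8266 replicates 1 and 2. Without DMSO replicate 1 and olaparib replicate 2, 5 rows were called for the combination, 3 for EZM8266 and 1 for olaparib against DMSO. Fits of only the groups compared called 11 with the combination against olaparib and 3 with EZM8266 against DMSO. A filter of 1 CPM, and DESeq2, each called 1 in the combination against EZM8266 and 1 in the interaction. The cause was not tested.

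The replicate block called 15, 10, 5, 0, 0 and 0 in that order. Correlations of same-numbered deviations were 0.291, 0.218 and 0.293 among the treated groups, and -0.147, -0.315 and -0.312 with DMSO, so same-numbered libraries deviated together among the treated groups and not with DMSO. The numbers were not taken to pair the libraries, since not every correlation was above 0.1. Crossing the DMSO numbers in the replicate block, chosen after seeing the data, called 73, 84, 47, 3, 1 and 3 in that order.

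The Gm20186 row as CPM was 1.36 higher with EZM8266 than with DMSO, while its share of the pair was lower by 0.024 percentage points; both rest on 9 and 7 counts.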
